A study of Mus musculus with 123 samples.

Results

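Lungs of sensitized and naive BALB/c mice were compared at the 96 h time point of an ovalbumin (OVA) challenge series, on 15 arrays, with 108 arrays in the other groups of the study. The sensitized group comprised 8 mice labelled as sensitized to OVA and challenged with OVA. The naive group comprised 7 mice that were not sensitized, and both groups are of the BALB/c strain, with no genetic alteration named in the labels. The series' design text states that naive animals were challenged with OVA as well, but PBS stands in the naive mice's sample names, so whether the naive mice received OVA or buffer is not settled by the labels. The 15 arrays were chosen by their labels alone, and every gene with a symbol was used, with 1 probe set per gene, the one with the highest mean over all arrays. That gave 13053 genes. OVA is the egg protein used to model allergic asthma in mice, and the wider study sampled both arms at 0, 2, 6, 24, 48, 72, 96 and 168 h. Each sample is a separate animal, so the spread between samples is that between mice.

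In sensitized mice, inhaled allergen activates type 2 lymphocytes, whose cytokines IL-4, IL-5 and IL-13 act on different target cells. IL-13 turns airway epithelial cells into mucus-secreting goblet cells, IL-5 sustains eosinophils, and IL-4 drives antibody class switching and, with IL-13, an alternative state of macrophages. Chemokines such as the eotaxins recruit eosinophils, and plasma cells formed in the response secrete antibody through an enlarged endoplasmic reticulum.

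Values are log2 RMA intensities, in which 1 unit is a doubling, and a difference is always sensitized minus naive. Differences carry a standard error (SE) from limma's linear model over all arrays of the series, and a gene is said to have risen, fallen or been called where the Benjamini-Hochberg adjusted p over 13053 genes was under 0.05. Values of mice are given as lowest, median and highest. Probe set levels of different genes are not comparable with each other, and an mRNA level of whole lung cannot tell fewer cells of a type from less RNA per cell.

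All 10 lung markers checked had a probe set. The surfactant gene Sftpc lay between 14.40 and 14.48 in sensitized mice and between 14.47 and 14.51 in naive mice, and the club cell gene Scgb1a1 between 14.54 and 14.64 in sensitized mice and between 14.58 and 14.66 in naive mice. Marco, an alveolar macrophage receptor, was dim, at 6.97 to 7.12 in sensitized mice and 6.91 to 7.26 in naive mice. Skeletal muscle and squamous epithelial genes, high on 9 arrays of the series, were high on 0 arrays at 96 h. The actin 3′ minus 5′ control probe set difference, a measure of RNA integrity, averaged 1.05 ± 0.16 in sensitized mice and 1.11 ± 0.08 in naive mice (SD, n = 8 and 7, two-sided exact permutation p = 0.385). The mean of a cardiac muscle gene list varied more: it ranged from 8.58 to 12.71 in sensitized mice and from 10.16 to 11.65 in naive mice. It was lowest in sensitized replicates 2 and 4, at 9.94 and 8.58, and in naive replicates 1, 2 and 5, at 10.44, 10.16 and 10.21, and several calls and counts without these 5 mice are given beside the results they touch. The part of this variation in the results was not tested.

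Of 13053 genes, 5483 (42%) were called at 96 h, 2766 (21.2%) higher and 2717 (20.8%) lower in sensitized lungs. Most differences were small: the median absolute difference of the called genes was 0.28. Large ones were nearly all increases. In all, 239 genes were higher by at least 1 and 17 lower by at least 1, and 46 were higher by at least 2 against 2 lower by at least 2. Every sensitized mouse lay above every naive mouse for 800 genes (6.13%) and below every naive mouse for 661 (5.06%). The near-even split between higher and lower depended on scaling, being 2414 higher and 3307 lower after quantile normalization, and 2189 higher and 3730 lower when each array was centred on its median. Without the 5 mice low in cardiac muscle genes, 4273 genes were called, 2199 higher and 2074 lower.

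**Figure D1:**
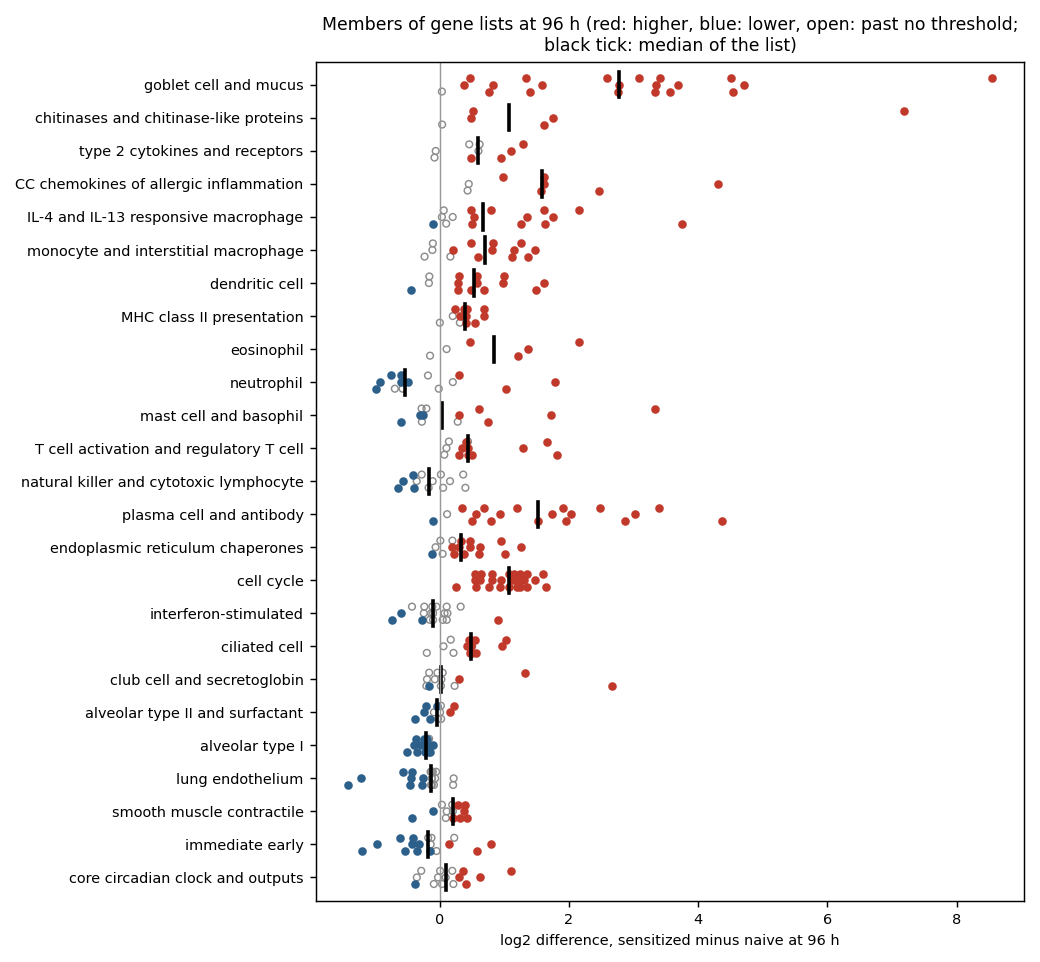
Log2 difference (x axis, sensitized minus naive at 96 h) of each measured member of 25 gene lists (y axis). Red points rose, blue points fell, open points passed no threshold, and the black tick is the list's median. Goblet cell, plasma cell and cell cycle members lie to the right, alveolar type I members to the left.

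Goblet cell and mucus genes held the largest increases. Of 21 measured members, 20 rose and 0 fell, with a median difference of 2.77, where the median over all 13053 genes was 0.0006. Clca1, a secreted regulator of chloride channels and mucus made by goblet cells, had the highest difference of all genes. It was at 13.96, 14.15 and 14.31 in sensitized mice (lowest, median and highest), against 5.22, 5.55 and 6.34 in naive mice, a difference of 8.55 ± 0.60 (adjusted p = 4.28e-23). Every sensitized mouse lay far above every naive mouse. The naive values are near the dim end and the sensitized values near the bright end of the array's scale, so no exact fold is given. Muc5ac, the inducible airway mucin, was at 9.39, 10.63 and 11.48 in sensitized mice, against 6.86, 7.12 and 7.53 in naive mice (3.33 ± 0.32, adjusted p = 5.96e-15), and the constitutive mucin Muc5b at 11.43, 12.46 and 13.03, against 8.18, 9.87 and 10.90 (2.77 ± 0.33, adjusted p = 3.89e-11). The groups overlapped for neither mucin.

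Genes that build and move mucus rose with the mucins. Gcnt3, a glycosyltransferase of mucin O-glycans, was higher by 4.51 ± 0.30, Agr2, a disulfide isomerase needed for mucin folding, by 3.35 ± 0.42, and Fcgbp, a mucus-associated protein, by 3.41 ± 0.26. Slc26a4 (pendrin), an epithelial anion exchanger, was at 13.08, 13.30 and 13.70 in sensitized mice, against 8.27, 8.78 and 9.14 in naive mice (4.54 ± 0.49, adjusted p = 5.46e-13). Fxyd4, a regulator of the sodium pump, was higher by 3.70 ± 0.48, Scin, an actin-severing protein, by 4.71 ± 0.38, and Capn9, a calpain protease of mucus-producing tissues, by 3.56 ± 0.35. The transcription factors of goblet cell differentiation moved less. Spdef was higher by 1.40 ± 0.18 and Foxa3 by 1.58 ± 0.19.

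The spread of Agr2 and Muc5b among naive mice went with the cardiac muscle list, and how many other airway genes did so was not counted. Agr2 was at 6.61 to 7.44 in naive replicates 1, 2 and 5 and at 8.45 to 9.45 in the other 4 naive mice, and Muc5b was at 8.18 to 8.99 in replicates 1, 2 and 5 and at 9.87 to 10.90 in the other 4. Without the 5 mice low in cardiac muscle genes, 20 of the 21 goblet members still rose and the list median was 2.59.

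Chitinase-like proteins, secreted lectins of epithelium and macrophages, followed. Of 6 measured members 5 rose. Chil4 (Ym2) was at 12.34, 13.50 and 14.01 in sensitized mice, against 5.93, 6.08 and 6.50 in naive mice (7.18 ± 0.68, adjusted p = 1.35e-15). Chil3 (Ym1), already high in naive lungs at 12.52 to 12.98, was higher by 1.61 ± 0.17, and Chia1, the acidic chitinase, by 1.75 ± 0.17. Chil3 and Chil4 are closely related in sequence, and probe sets may not separate them fully.

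**Figure D2:**
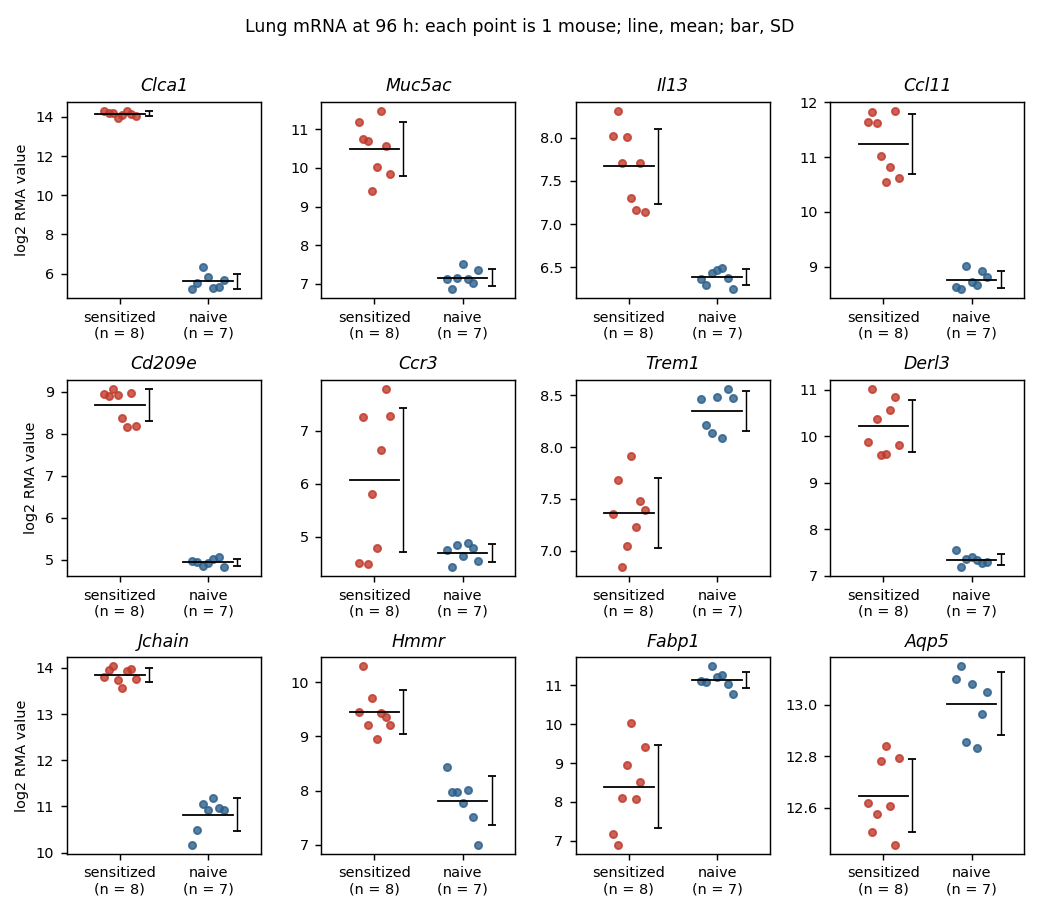
Log2 values of 12 genes at 96 h, 8 sensitized mice at the left and 7 naive mice at the right of each panel. Points are mice, lines means and bars SD. The groups do not overlap except for Ccr3, where 3 sensitized mice lie within the naive range, and Aqp5, where 7 of 8 sensitized mice lie below every naive mouse.

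The cytokines upstream of these targets showed smaller differences. Of 9 measured type 2 cytokines and receptors, 4 rose and 0 fell. Il13 was at 7.14, 7.70 and 8.31 in sensitized mice, against 6.25, 6.38 and 6.50 in naive mice (1.28 ± 0.33, adjusted p = 0.000996). Il21, a cytokine of helper T cells for B cells, was higher by 1.11 ± 0.31, the decoy receptor Il13ra2 by 0.95 ± 0.26 and the myeloid growth factor Csf2 by 0.49 ± 0.12. Il4 (0.46 ± 0.38, adjusted p = 0.346) and Il5 (0.60 ± 0.30, adjusted p = 0.0933) did not pass, although all 8 sensitized mice lay above every naive mouse for Il4 and 7 of 8 for Il5. Il10, a regulatory cytokine, did not pass either (0.62 ± 0.30, adjusted p = 0.0832), though it did with array weights or with the 96 h arrays alone. When only the 96 h arrays entered the fit, 7 of the 9 rose, Il4 and Il5 among them. Among 6 epithelial alarmins and receptors, Il33 (0.59 ± 0.16) and the IL-25 receptor Il17rb (0.63 ± 0.10) rose. Tslp (-0.59 ± 0.10) and Il18 (-0.89 ± 0.18) fell in the same lungs.

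Chemokines of allergic inflammation rose in 6 of 8 measured members, with a median difference of 1.59. Ccl8, a ligand of the receptor CCR8 on type 2 T cells in mice, was at 12.22, 12.74 and 13.26 in sensitized mice, against 7.92, 8.40 and 8.87 in naive mice (4.31 ± 0.38, adjusted p = 3.32e-17). Ccl11 (eotaxin-1), a ligand of the eosinophil receptor CCR3, was at 10.55, 11.32 and 11.84 in sensitized mice, against 8.59, 8.72 and 9.01 in naive mice (2.47 ± 0.37, adjusted p = 5.72e-08). No sensitized mouse overlapped the naive range for either. Ccl17, a ligand of CCR4, was higher by 1.62 ± 0.34, the monocyte attractant Ccl12 by 1.61 ± 0.35 and Ccl20, which attracts CCR6-bearing cells, by 1.56 ± 0.25. The second eotaxin, Ccl24, did not pass (0.45 ± 0.35, adjusted p = 0.313). Of 7 neutrophil-attracting CXC chemokines 3 rose and 1 fell, where 21.2% of all genes rose and 20.8% fell. Cxcl3 was higher by 3.64 ± 0.55, Cxcl5 by 2.16 ± 0.58 and Cxcl1 by 1.73 ± 0.36, though Cxcl5 was not called without the 5 mice low in cardiac muscle genes. Ppbp, a platelet chemokine, fell by 0.52 ± 0.21 (adjusted p = 0.0359), a call lost without naive replicate 2, 4 or 6 or sensitized replicate 2, 3 or 7. Cxcl2 did not pass (0.97 ± 0.46, adjusted p = 0.0773).

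Genes of several macrophage lists rose. Of 16 measured members of the IL-4 and IL-13 responsive set, 11 rose and 1 fell (median 0.66). Cd209e, a C-type lectin, was at 8.15, 8.91 and 9.06 in sensitized mice, against 4.83, 4.96 and 5.07 in naive mice (3.74 ± 0.46, adjusted p = 1.02e-10). The lipoxygenase Alox15 was higher by 2.15 ± 0.58, the fusion protein Dcstamp by 1.75 ± 0.34, the cholesterol hydroxylase Ch25h by 1.63 ± 0.38 and Pdcd1lg2, the PD-1 ligand PD-L2, by 1.35 ± 0.32. Alox15 is counted in the eosinophil list as well. Mmp12, the macrophage elastase, was at 11.84, 12.69 and 13.21 in sensitized mice, against 8.89, 9.01 and 9.83 in naive mice (3.42 ± 0.41, adjusted p = 5.35e-11). AA467197, for which the files give only this symbol, was higher by 4.28 ± 0.45.

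Among monocyte and interstitial macrophage genes 10 of 14 rose and 0 fell, with a median of 0.70. Alveolar macrophage genes rose in 5 of 13 and fell in 0, with a median of 0.15, where 21.2% of all genes rose. Among them Atp6v0d2, a proton pump subunit, was higher by 0.62 ± 0.15, while Cidec, a lipid droplet protein, did not pass (-0.68 ± 0.34, adjusted p = 0.1). Trem2, a lipid-sensing receptor, was higher by 1.47 ± 0.21 and Ms4a7, a membrane protein of tissue macrophages, by 1.36 ± 0.24, while a further probe set for Trem2 differed by -0.12. The complement C1q subunits rose together, C1qa by 1.27 ± 0.17, C1qc by 1.14 ± 0.17 and C1qb by 0.82 ± 0.12. Of 14 dendritic cell genes 11 rose and 1 fell, although 6 rose without the 5 mice low in cardiac muscle genes. Among those that rose were the integrin Itgax (1.50 ± 0.18), counted in the alveolar macrophage list as well, and the transcription factor Batf3 (1.0 ± 0.23). Of 12 genes of MHC class II presentation 9 rose and 0 fell. Their master regulator Ciita was higher by 0.68 ± 0.12, and the costimulatory ligand Cd86 by 0.69 ± 0.14.

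Granulocyte genes moved in both directions. Of 6 eosinophil genes 4 rose, where 21.2% of all genes did, but not in every mouse. Ccr3, the eotaxin receptor, was at 4.49, 6.22 and 7.80 in sensitized mice, against 4.43, 4.74 and 4.88 in naive mice (1.37 ± 0.40, adjusted p = 0.0038). Sensitized replicates 1, 3 and 5, at 4.49 to 4.78, lay within the naive range and the other 5 at 5.80 to 7.80. Prg2, the eosinophil major basic protein, was at 5.66 to 5.94 in the same 3 mice and at 6.70 to 8.21 in the other 5, against 5.37 to 5.76 in naive mice. Epx, the eosinophil peroxidase, passed narrowly (0.47 ± 0.19, adjusted p = 0.0405) and was called in 10 of 23 alternatives. Without the 5 mice low in cardiac muscle genes 2 of the 6 rose, and Ccr3 was not among them. Siglecf, carried by eosinophils and alveolar macrophages, did not pass (-0.15 ± 0.15).

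Of 14 neutrophil genes 3 rose and 6 fell, with a median of -0.53, where 21.2% of all genes rose and 20.8% fell. The share that rose is near that of all genes. The largest differences were increases. Ltf (lactoferrin), a granule protein also made by airway glands, was at 10.08, 11.48 and 12.31 in sensitized mice, against 7.88, 10.18 and 11.38 in naive mice (1.78 ± 0.55, adjusted p = 0.00575). Its groups overlapped, and it was not called without the 5 mice low in cardiac muscle genes. Lcn2 (lipocalin-2), made by neutrophils and epithelium, was higher by 1.03 ± 0.14 with no overlap. Trem1, a myeloid receptor that amplifies inflammation, was at 6.84, 7.37 and 7.91 in sensitized mice, against 8.09, 8.46 and 8.57 in naive mice (-0.98 ± 0.21, adjusted p = 7.92e-05), with no overlap. The gelatinase Mmp9 fell by 0.92 and the calgranulin S100a8 by 0.60, the second with adjusted p = 0.0417. The number that fell was 3 when naive replicate 3, 5 or 6 or sensitized replicate 3, 4, 6 or 8 was left out, and S100a8 was not called in any of these fits. At 3 of 14 the share that fell is near that of all genes. A further Trem1 probe set differed by -0.31.

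Over the 12 measured mast cell and basophil genes 5 rose and 3 fell, with a median of 0.04, where 21.2% of all genes rose and 20.8% fell. The share that fell is near that of all genes. Mcpt2, a mucosal mast cell chymase, was at 6.06, 8.59 and 9.58 in sensitized mice, against 4.55, 5.03 and 5.37 in naive mice (3.33 ± 0.39, adjusted p = 1.11e-11), and Mcpt1, its close relative, was higher by 1.72 ± 0.34. The tryptases Tpsab1 and Tpsb2 were higher by 0.74 ± 0.14 and 0.60 ± 0.16. Mcpt4, a chymase of connective tissue mast cells, fell by 0.60 ± 0.18 (adjusted p = 0.0049).

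T cell genes rose modestly. Of 14 measured members 7 rose and 0 fell, where 21.2% of all genes rose, with 4 higher without the 5 mice low in cardiac muscle genes. Cd4 was higher by 0.57 ± 0.11, while Cd8a was at 8.01, 8.26 and 8.78 in sensitized mice, against 8.17, 8.36 and 8.73 in naive mice (-0.10 ± 0.16, adjusted p = 0.666). Activation receptors moved further, with 9 of 13 members higher and 0 lower. Tnfrsf9 (4-1BB) was higher by 1.81 ± 0.39, Pdcd1 (PD-1) by 1.65 ± 0.22, the costimulator Icos by 1.29 ± 0.20 and Foxp3, the factor of regulatory T cells, by 0.41 ± 0.11. That count was 4 after quantile normalization and 4 without the 5 mice low in cardiac muscle genes. Natural killer and cytotoxic genes rose in 0 and fell in 4 of 13 members, where 20.8% of all genes fell, among them the receptor Ncr1 (-0.57 ± 0.20) and the granzyme Gzma (-0.40 ± 0.16). The number that fell was 2 when naive replicate 3 or 5 or sensitized replicate 5 was left out, and 1 without the 5 mice low in cardiac muscle genes, so the count is not apart from that of all genes.

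Plasma cell and antibody genes formed the second large block. Of 19 measured members 17 rose and 1 fell, with a median of 1.52, and the decrease was lost under quantile normalization. Jchain, which joins IgM and IgA polymers, was at 13.57, 13.86 and 14.04 in sensitized mice, against 10.17, 10.93 and 11.19 in naive mice (3.03 ± 0.26, adjusted p = 2.07e-17). Ighm was at 14.38, 14.50 and 14.55, against 8.77, 10.40 and 11.94 (4.37 ± 0.52, adjusted p = 2.54e-11), and 3 further Ighm probe sets differed by 4.67 to 5.63. The sensitized values are near the bright end of the array's scale, where spread and differences can be compressed. The IgA chain Igha was higher by 2.03 ± 0.17 and a kappa light chain variable segment by 3.74 ± 0.41. Immunoglobulin probe sets can take up transcripts of related chains and segments.

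Genes of the secretory plasma cell itself rose as well. Mzb1, a chaperone of antibody assembly, was at 11.91, 12.66 and 13.50 in sensitized mice, against 9.06, 9.25 and 9.65 in naive mice (3.39 ± 0.27, adjusted p = 1.59e-19). Eaf2, an elongation factor partner expressed in plasma cells, was at 10.21, 11.36 and 12.02, against 7.46, 7.72 and 8.16 (3.55 ± 0.28, adjusted p = 3.84e-20). Derl3, a protein of endoplasmic reticulum degradation, was at 9.60, 10.12 and 11.03, against 7.18, 7.34 and 7.55 (2.87 ± 0.22, adjusted p = 2.01e-20). For all 3 the groups were separate. Tnfrsf17 (BCMA), a survival receptor of plasma cells, was higher by 1.90 ± 0.19, Edem1 by 1.96 ± 0.18 (0.64 in a further probe set), the transcription factor Irf4 by 1.52 ± 0.24 and Xbp1, the factor of the secretory programme, by 0.35 ± 0.08. Pigr, the epithelial receptor that carries IgA into the airway lumen, was higher by 2.48 ± 0.21. Mature B cell genes rose in 4 of 11 members, the factor Spib by 0.75 ± 0.19, where 21.2% of all genes rose, and in 0 of 11 without the 5 mice low in cardiac muscle genes.

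Endoplasmic reticulum chaperones rose in 12 of 17 members and 1 fell (median 0.34), the decrease being lost under quantile normalization, on a smaller scale than the plasma cell genes. Sdf2l1, a partner of the chaperone Hspa5, was at 9.98, 10.42 and 11.30 in sensitized mice, against 9.06, 9.32 and 9.44 in naive mice (1.26 ± 0.18, adjusted p = 1.26e-08). Pdia4, a disulfide isomerase, was higher by 1.02 ± 0.13, Manf, a secreted protein of the stress response, by 0.95 ± 0.13, and Creld2, listed with the plasma cell genes, by 1.19 ± 0.13. Hspa5 (BiP), the principal chaperone, was higher by 0.30 ± 0.07, 6 of the 8 sensitized values exceeding the highest naive one.

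The endoplasmic reticulum stress element, to which the factors ATF6 and XBP1 bind, was searched in promoters on both strands as CCAAT followed by 9 bases of any kind and CCACG, so each match also holds a CCAAT box. RefSeq windows (GRCm38.p6) of 250 bases before to 50 after the start were at hand for 10459 of the genes tested. The element was in 13 of them (0.124%), in 6 of 15 endoplasmic reticulum chaperones and in 2 of 14 plasma cell genes. The stretches that hold it are shown 5′ to 3′ on the gene's strand with the element in capitals, because they include both genes that rose and genes that did not. They lie at chr10:75893148-75893397 (+) for Derl3, chr15:88819396-88819645 (+) for Creld2, chr2:34772005-34772063 (+) for Hspa5, chr10:86705618-86705676 (-) for Hsp90b1, chr12:17266471-17266529 (+) for Pdia6, chr19:6046512-6046570 (+) for Syvn1, chr11:50325780-50325838 (-) for Canx and chr14:118937807-118937865 (+) for Dnajc3.
Derl3: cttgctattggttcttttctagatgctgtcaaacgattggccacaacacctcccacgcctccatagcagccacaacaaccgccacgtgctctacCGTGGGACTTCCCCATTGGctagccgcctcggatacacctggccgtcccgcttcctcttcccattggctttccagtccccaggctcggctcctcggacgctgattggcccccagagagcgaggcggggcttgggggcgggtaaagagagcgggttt
Creld2: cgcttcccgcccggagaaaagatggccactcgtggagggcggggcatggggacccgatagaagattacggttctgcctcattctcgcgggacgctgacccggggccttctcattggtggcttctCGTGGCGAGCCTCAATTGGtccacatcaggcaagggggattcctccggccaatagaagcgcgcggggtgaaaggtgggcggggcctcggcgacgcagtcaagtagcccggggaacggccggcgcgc
Hspa5: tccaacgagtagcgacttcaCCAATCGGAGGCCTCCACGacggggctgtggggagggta
Hsp90b1: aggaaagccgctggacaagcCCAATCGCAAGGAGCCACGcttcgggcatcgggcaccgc
Pdia6: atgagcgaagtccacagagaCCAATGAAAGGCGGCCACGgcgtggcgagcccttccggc
Syvn1: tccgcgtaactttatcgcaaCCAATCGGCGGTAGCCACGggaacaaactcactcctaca
Canx: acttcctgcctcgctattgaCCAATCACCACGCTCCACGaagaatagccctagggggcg
Dnajc3: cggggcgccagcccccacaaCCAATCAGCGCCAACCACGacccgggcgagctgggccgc
Derl3 and Creld2 carry the element in reverse orientation and the other 6 in the forward one. Of the 8 genes, 6 rose, Derl3 by 2.87, Creld2 by 1.19, Syvn1, a ubiquitin ligase, by 0.63, Hsp90b1 (GRP94) by 0.47, Pdia6 by 0.38 and Hspa5 by 0.30. Canx (calnexin) was at 13.01, 13.08 and 13.15 in sensitized mice, against 13.03, 13.16 and 13.18 in naive mice (-0.06 ± 0.05), and Dnajc3 differed by 0.01 ± 0.07, neither past the threshold. Their further probe sets differed by -0.19 and 0.13 for Canx and by -0.14 to 0.45 for Dnajc3. A match is a description of letters and does not show binding.

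Cell cycle genes rose without exception: 25 of 25 measured members, with a median of 1.07. Hmmr, a spindle protein, was at 8.96, 9.39 and 10.29 in sensitized mice, against 7.0, 7.97 and 8.43 in naive mice (1.64 ± 0.25, adjusted p = 8.92e-08), although 2 further Hmmr probe sets differed by 0.32 and 0.30. Cdca8, a subunit of the chromosomal passenger complex, was at 8.63, 8.99 and 9.49, against 7.10, 7.27 and 7.73 (1.60 ± 0.20, adjusted p = 2.32e-10), and Cenpf, a kinetochore protein, at 8.00, 8.49 and 8.97, against 6.39, 6.88 and 7.77 (1.48 ± 0.24, adjusted p = 6.09e-07). All sensitized mice were above all naive mice for each. A further probe set differed by 0.63 for Cdca8 and by 0.56 for Cenpf. The ubiquitin-conjugating enzyme of mitotic exit, Ube2c, was higher by 1.35 ± 0.19. Tyms, the thymidylate synthase, had the smallest difference (0.25 ± 0.09, adjusted p = 0.0237), and lost its call under both rescalings, without naive replicate 5 or 6 or sensitized replicate 2 or 4, and without the 5 mice low in cardiac muscle genes.

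Promoters of mitotic genes often carry CCAAT boxes, bound by NF-Y, upstream of a cell cycle homology region near the start. TTTGAA was in 13 of 21 cell cycle windows (61.9%), against 11.7% of all 10459, and CCAAT in 18 of 21 (85.7%), against 37.5% of all, each on either strand. The regions around both are shown for the 3 genes above, on the gene's strand, with both motifs in capitals, at chr11:40733413-40733617 (-) for Hmmr, chr4:124936893-124937012 (-) for Cdca8 and chr1:189688062-189688226 (-) for Cenpf (RefSeq, GRCm38.p6).
Hmmr: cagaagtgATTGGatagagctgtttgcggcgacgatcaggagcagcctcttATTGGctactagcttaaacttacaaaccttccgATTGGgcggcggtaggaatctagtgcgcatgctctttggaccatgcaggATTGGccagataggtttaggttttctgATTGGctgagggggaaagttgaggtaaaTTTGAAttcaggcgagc
Cdca8: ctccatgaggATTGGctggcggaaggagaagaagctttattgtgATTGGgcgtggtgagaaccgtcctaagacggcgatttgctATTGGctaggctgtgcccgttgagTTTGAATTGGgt
Cenpf: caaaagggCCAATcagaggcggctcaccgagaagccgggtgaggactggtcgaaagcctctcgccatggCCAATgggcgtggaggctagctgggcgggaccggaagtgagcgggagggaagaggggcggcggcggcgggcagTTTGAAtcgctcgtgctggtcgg
In Cdca8 the homology region and a reversed CCAAT box overlap. Motifs so short occur by their letters alone in many promoters, as the shares over all windows show.

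Genes of lung parenchyma moved less, and of these lists only the alveolar type I list had most of its members called lower. Alveolar type I genes fell in 12 of 14 members and rose in 0, with a median of -0.21, and the count was 12 under median centring, under quantile normalization and without the 5 mice low in cardiac muscle genes. Aqp5, a water channel, was at 12.46, 12.61 and 12.84 in sensitized mice, against 12.83, 13.05 and 13.15 in naive mice (-0.36 ± 0.07, adjusted p = 9.01e-06), with 7 of 8 sensitized mice below every naive mouse. Sema3e fell by 0.50, the scaffold Akap5 by 0.40, Vegfa, the vascular growth factor, by 0.37 and Ager (RAGE), the abundant type I marker, by 0.10. The mean over the alveolar type I list was 12.70 to 12.91 in sensitized mice, against 12.97 to 13.08 in naive mice. For the lung endothelial list it was 11.26 to 11.48, against 11.57 to 11.67, so the groups were separate for both lists. Lung endothelial genes fell in 8 of 20 and rose in 0, with 12 not called and a median of -0.13, where 20.8% of all genes fell. Among those that fell, the growth factor receptors Flt1 and Kdr were lower by 0.46 and 0.44 and Emcn, a capillary sialomucin, by 0.57. Esm1, a secreted proteoglycan of endothelium, fell by 1.41 ± 0.32 (adjusted p = 0.000174).

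Ciliated cell genes rose in 10 of 15 members and fell in 0 (median 0.48). Foxj1, the master factor of motile cilia, was at 8.92, 9.63 and 10.38 in sensitized mice, against 7.98, 8.61 and 9.45 in naive mice (1.03 ± 0.16, adjusted p = 1.62e-07), and Rsph1, a radial spoke protein, was higher by 0.96 ± 0.13. The mean over the list overlapped between the groups, and 5 of the 8 sensitized values exceeded the highest naive one. Among 13 club cell and secretoglobin genes 3 rose and 1 fell, where 21.2% of all genes rose and 20.8% fell. The share that rose is near that of all genes, and 2 rose and 5 fell under median centring. Reg3g, an antimicrobial lectin, was at 8.98, 13.04 and 13.69 in sensitized mice, against 5.86, 11.06 and 12.42 in naive mice (2.67 ± 0.90, adjusted p = 0.0116), and naive replicates 1, 2 and 5 were its 3 lowest naive mice, at 9.06, 5.86 and 7.38. Neither Reg3g nor Scgb3a1 (1.33 ± 0.38) was called without the 5 mice low in cardiac muscle genes, and Reg3g was not called without naive replicate 2 alone.

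Differences of alveolar type II genes were small, with 2 higher and 5 lower of 12 and a median of -0.04. The mean over this list was 13.547 to 13.621 in sensitized mice, against 13.619 to 13.692 in naive mice, and 7 sensitized mice lay below every naive mouse. Every sensitized mouse lay below every naive mouse for 3 members and above for 1. Of all genes, 21.2% rose and 20.8% fell. Smooth muscle genes rose in 6 and fell in 2 of 13, against the same shares of all genes, with Acta2 higher by 0.28 ± 0.06. Only 2 rose without naive replicate 5 and 2 without the 5 mice low in cardiac muscle genes. Of 19 interferon-stimulated genes 1 rose, the antiviral GTPase Mx1 by 0.91 ± 0.21, and 3 fell, Ifit2 by 0.73 ± 0.11, and 5 fell with array weights or either rescaling. Among all genes 21.2% rose and 20.8% fell, so these counts do not stand above those of all genes. Acute inflammatory cytokine genes rose in 2 and fell in 2 of 16 members, with 12 not called and a median of 0.03. The acute phase protein Saa3 was at 12.24, 12.80 and 13.22 in sensitized mice, against 10.25, 10.70 and 11.65 in naive mice (2.01 ± 0.44, adjusted p = 0.000104), whereas Il1b fell by 0.61 ± 0.20.

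The deepest decreases were in genes of other functions. Fabp1, a fatty acid binding protein best known from liver and gut, was at 6.90, 8.30 and 10.04 in sensitized mice, against 10.79, 11.11 and 11.49 in naive mice (-2.75 ± 0.35, adjusted p = 2.78e-10), or 6.71-fold lower. Pon1, a lipoprotein-associated lactonase, was at 8.66, 10.02 and 10.45, against 11.50, 11.80 and 12.06 (-2.07 ± 0.27, adjusted p = 1.18e-09). Every sensitized mouse lay below every naive mouse for both, with the sensitized mice more spread than the naive mice. Krtap17-1, a keratin-associated protein, fell by 1.72, Vstm2a by 1.62, Apold1, an endothelial stress gene, by 1.22, the immediate early receptor Nr4a1 by 1.20, the ferritin receptor Scara5 by 1.19, the stromelysin Mmp3 by 1.12 and the calcitonin receptor Calcr by 1.10. Immediate early genes, which respond within minutes to handling and stress, fell in 9 and rose in 3 of 17, where 20.8% of all genes fell and 21.2% rose. In this list 1 was higher without naive replicate 5 and 5 were lower without the 5 mice low in cardiac muscle genes.

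The sensitized minus naive difference at 96 h was then set against that at 72, 168 and 0 h, 3 comparisons that share the 96 h mice. Against 72 h, 1 gene differed (0.00766% of those tested), the clock gene Nr1d1, while 1324 had an unadjusted p under 0.05 and array weights gave 376 called. Its difference was 0.41 at 96 h and -0.72 at 72 h, 1.13 ± 0.23 apart (adjusted p = 0.0341). The call was lost under quantile normalization, with only the arrays compared, without naive replicate 1, 2 or 3 or sensitized replicate 3, 5, 6 or 8, and without the 5 mice low in cardiac muscle genes. A p that misses the threshold does not show that the differences at 96 and 72 h were equal.

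Against 168 h, 892 genes differed (6.83%), 424 (3.25%) with a more positive and 468 (3.59%) with a more negative difference at 96 h. The actin 3′ minus 5′ difference at 168 h was 1.26 to 1.71 in sensitized mice and 0.80 to 1.45 in naive mice. These ranges overlapped but lay higher in sensitized mice, whereas the means at 96 h were 1.05 and 1.11. The part of RNA integrity in this comparison was not tested. Of the goblet cell list 9 of 21 were more positive at 96 h. Muc5ac averaged 10.49 ± 0.70 in sensitized mice and 7.17 ± 0.22 in naive mice at 96 h (SD), and 8.62 ± 0.52 in sensitized mice and 7.24 ± 0.21 in naive mice at 168 h, so its difference was 1.95 ± 0.45 larger at 96 h (adjusted p = 0.00724). The 6 most positive genes were Cxcl3 (2.45), Fxyd4 (2.07), Muc5ac (1.95), Ccl8 (1.87), Ccl11 (1.80) and Capn9 (1.79). Clca1 had differences of 8.55 at 96 h and 7.77 at 168 h, but its 96 h values lie near both ends of the array's scale, which limits this comparison. The broadest shift was in the cell cycle list, where 20 of 25 were more positive at 96 h and the list median was 1.07 at 96 h and 0.17 at 168 h. Of the alveolar type I list 6 of 14 were more negative at 96 h. Fabp1 (-1.86), C1qtnf3 (-1.12), 9530026P05Rik (-1.09), Dach1 (-0.83), Edil3 (-0.82) and Ces2b (-0.81) were the most negative. The count past the threshold moved when single mice were left out, from 442 without sensitized replicate 2 to 1400 without sensitized replicate 3. It was 502, 510 and 461 without naive replicate 3, 5 or 6 and 553 without sensitized replicate 6. Genes with an unadjusted limma p under 0.05 moved less. They numbered 3210 in the main fit, 2878 without sensitized replicate 2 and 3596 without sensitized replicate 3. The called count was 1573 with array weights and 103 without the 5 mice low in cardiac muscle genes. That fit kept 6 sensitized and 4 naive mice at 96 h. Without those mice Muc5ac and Dach1 stayed called among the 12 genes named here, and the other 10 had adjusted p between 0.0612 and 0.149 in limma. The values of these 10 were then 2.36 for Cxcl3, 1.94 for Fxyd4, 1.70 for Ccl8, 1.64 for Ccl11 and 1.75 for Capn9. On the negative side they were -1.70 for Fabp1, -1.39 for C1qtnf3, -1.07 for 9530026P05Rik, -0.76 for Edil3 and -0.84 for Ces2b.

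Against 0 h, 407 genes differed (3.12%), 175 (1.34%) more positive and 232 (1.78%) more negative at 96 h, and the shares turned to 154 and 355 after quantile normalization and 159 and 384 after median centring. Naive replicates 1 and 3 at 0 h were among the 9 arrays high in skeletal muscle or squamous epithelial genes. Without those 9 arrays 578 genes differed, 312 more positive and 266 more negative, so the balance was reversed. Plasma cell genes led the positive side. Of that list 9 of 19 were more positive at 96 h, as were 9 of 17 endoplasmic reticulum chaperones, against 0 of 25 cell cycle and 0 of 21 goblet cell genes. Eaf2 averaged 11.28 ± 0.56 in sensitized mice and 7.74 ± 0.25 in naive mice at 96 h (SD), and 9.19 ± 0.92 in sensitized mice and 7.83 ± 0.19 in naive mice at 0 h (2.18 ± 0.39 apart, adjusted p = 0.000148). The same kappa segment (2.18), Derl3 (2.14), Mzb1 (1.92), the transaminase Bcat1 (1.92) and Jchain (1.86) followed. Fabp1 (-1.72), Npy2r (-1.21), Zc3h6 (-1.09), Calcr (-0.97), Npas2 (-0.89) and Ooep (-0.88) were the most negative. The count was 230 without naive replicate 3, 616 without sensitized replicate 3, 2122 with array weights and 190 without the 5 mice low in cardiac muscle genes. Without those mice the kappa segment, Bcat1, Fabp1, Npy2r, Npas2 and Ooep were not called, with adjusted p between 0.0683 and 0.191 in limma. Their values were then 1.96, 1.72, -1.56, -0.97, -0.81 and -0.88 in that order.

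**Figure D3:**
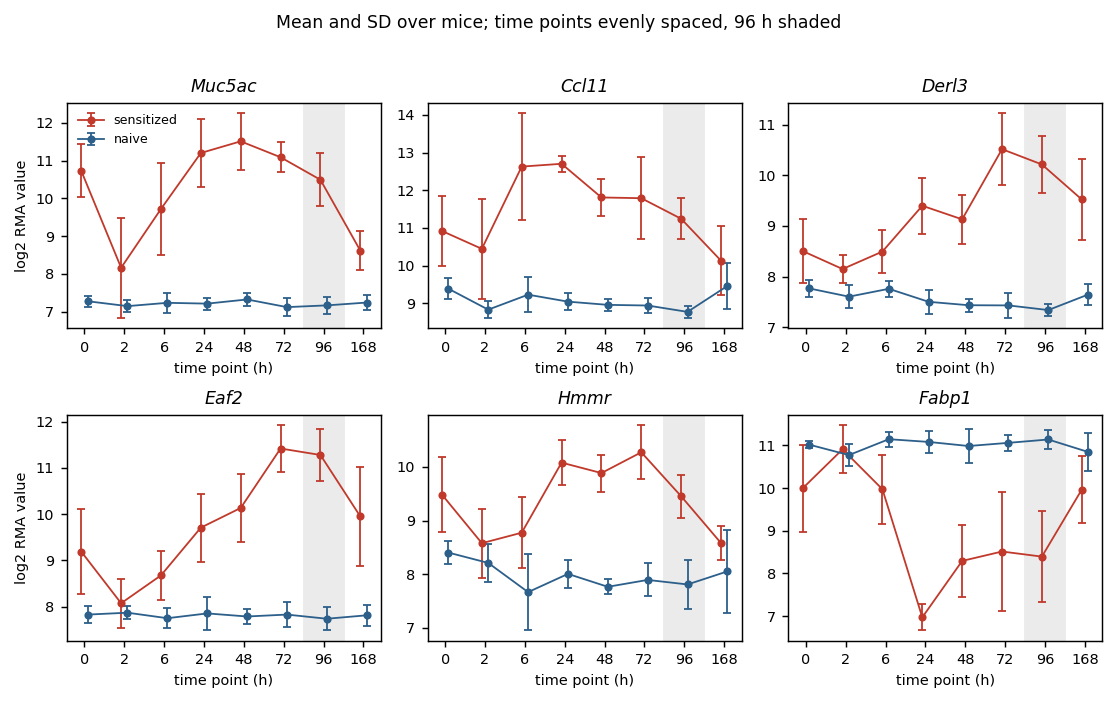
Mean and SD of log2 values over mice at the 8 time points (evenly spaced, 96 h shaded) in sensitized (red) and naive (blue) lungs for 6 genes. Eaf2 and Derl3 in sensitized lungs are highest at 72 and 96 h, the arms are closer at 168 h than at 96 h for Muc5ac, Ccl11 and Hmmr, and the Fabp1 mean is lower in sensitized lungs at every time but 2 h.

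**Figure D4:**
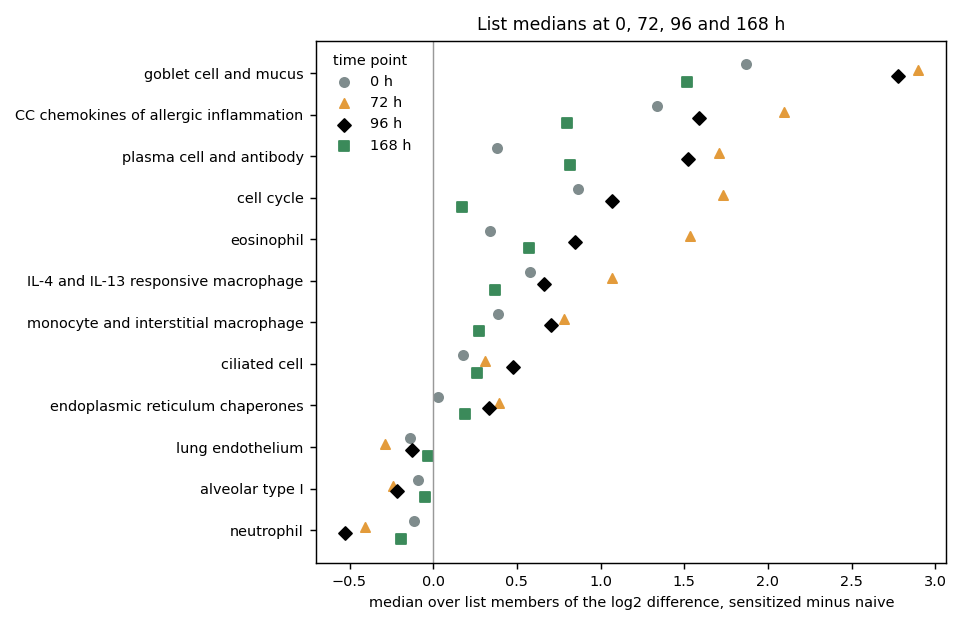
Median over list members of the log2 difference (x axis, sensitized minus naive) at 0, 72, 96 and 168 h for 12 gene lists (y axis). The cell cycle median is 1.07 at 96 h and 0.17 at 168 h, and the plasma cell median 0.38 at 0 h and 1.52 at 96 h.

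The naive mice at 96 h also stood apart from other naive mice. Against the mean of the naive groups at 0, 24, 48, 72 and 168 h, 1578 genes differed (12.1%), 777 (5.95%) higher and 801 (6.14%) lower at 96 h, with 1179 higher and 497 lower after median centring, 946 higher and 594 lower after quantile normalization, 974 in all without naive replicate 2, and 187 in all without the mice low in cardiac muscle genes. Without the 9 arrays high in skeletal muscle or squamous epithelial genes 809 were higher and 991 lower. Clock genes were the most shifted. Of 15 members 4 were higher and 10 lower in naive mice at 96 h. Dbp, an output of the clock, was at 8.40 to 8.90 in naive mice at 96 h and at 9.94 to 12.74 in the naive mice of the other 5 whole-day groups (-2.70, adjusted p = 3.38e-26). The repressors Nr1d1 (-1.69) and Per3 (-1.24), and Sphk2 (-1.93) and H3f3b (-1.54), were likewise lower, and the activators Npas2 (1.43) and Arntl (0.76), and Cxcl5 (1.40), Acot1 (0.77) and Snord89 (0.76), higher. Dbp in sensitized mice was also lowest at 96 h among the whole-day groups, at 9.69 ± 0.25 (SD), against 10.40 ± 0.28 to 12.26 ± 0.36 at 0 to 72 and 168 h.

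Within 96 h, clock genes rose in 5 and fell in 1 of 15, where 21.2% of all genes rose and 20.8% fell. Dbp was at 9.31, 9.65 and 10.14 in sensitized mice, against 8.40, 8.54 and 8.90 in naive mice (1.11 ± 0.21, adjusted p = 1.28e-05), with no overlap, and at 0 h its difference was -0.22. Per2 (0.63 ± 0.22), Nr1d1 (0.41 ± 0.16) and Per3 (0.36 ± 0.15) passed narrowly, Arntl (-0.35 ± 0.15, adjusted p = 0.0534) and Npas2 (-0.28 ± 0.19) did not, and 3 rose under either rescaling or without naive replicate 1 or 2 or sensitized replicate 3, and 2 without sensitized replicate 5 or without the 5 mice low in cardiac muscle genes. At 3 or 2 of 15 the share that rose is near or below the 21.2% of all genes. The labels used here give no hour of day for any mouse, so a shift in collection hour and the 96 h groups cannot be told apart.

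**Figure D5:**
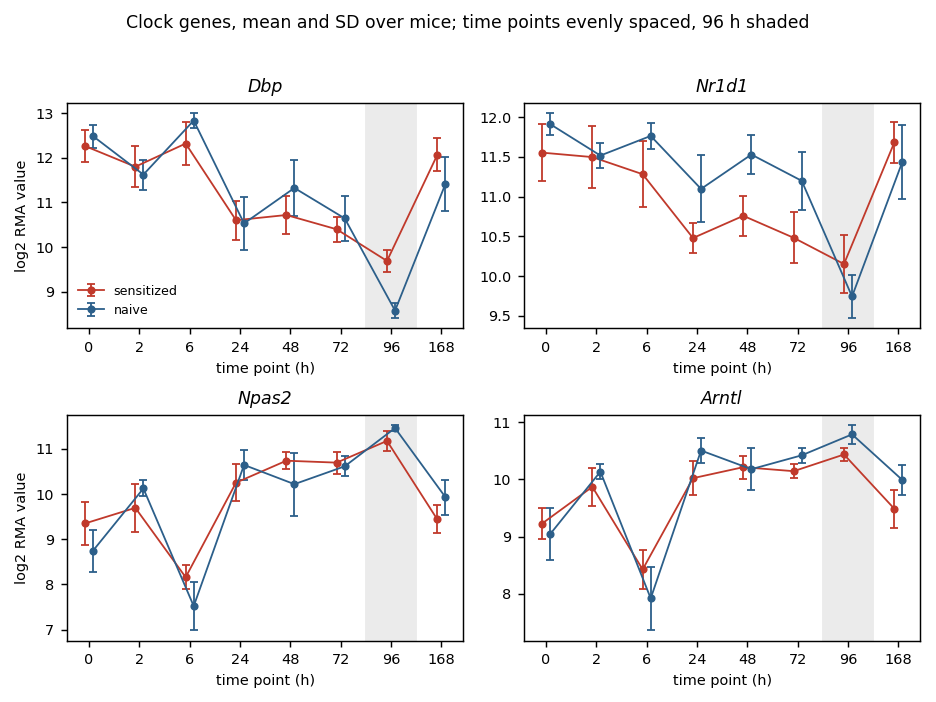
Mean and SD of log2 values over mice of 4 clock genes at the 8 time points (evenly spaced, 96 h shaded) in sensitized (red) and naive (blue) lungs. At 96 h Dbp and Nr1d1 are lowest and Npas2 and Arntl highest among the whole-day naive groups.

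Heat shock genes rose in 4 of 8 members and fell in 0, where 21.2% of all genes rose. Hspa1b was at 12.40, 13.08 and 13.99 in sensitized mice, against 10.65, 11.20 and 13.78 in naive mice (1.37 ± 0.37, adjusted p = 0.00154), with naive replicates 6 and 7, at 12.63 and 13.78, inside the sensitized range. Without the 5 mice low in cardiac muscle genes Hspa1b was not called and 1 of the 8 members rose. Of the genes of other tissues, 0 of 9 adipocyte, 0 of 11 skeletal muscle and 0 of 11 squamous epithelial genes were called, and 1 of 11 cardiac muscle genes, Mybpc3 (0.98 ± 0.33), which was not called without sensitized replicate 8. Of 3 measured erythroid genes 1 fell, and of 4 thymus and lymph node genes 1 rose and 1 fell.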

How the data were processed

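RNA of whole lung was hybridised to an Affymetrix 3′ expression array after labelling of 100 ng of total RNA, 1 array per mouse, per the labels' protocols. The deposited series table holds log2 intensity values made by the authors with RMA, per the submitters' processing notes, with no version stated there. RMA subtracts background, forces arrays to one distribution and summarises probes, so uniform shifts of total RNA are lost. Of 25697 probe sets, 22478 had 1 gene symbol, 259 several and 2950 none. Values were used as deposited. Differences came from limma 3.58.1 (R 4.3.3), a group-means model over all arrays with 107 residual degrees of freedom, with Benjamini-Hochberg adjustment over 13053 genes. The actin control was compared by an exact permutation test. Array number limits precision. The text names the 15 highest and 10 lowest differences, up to 4 members per list with the largest absolute difference, the 6 highest and 6 lowest differences between times, the 5 highest and 5 lowest naive shifts, and other list members beside their list. Not every gene that this rule picks is named. Gene lists (52, with 629 of 780 members measured) and all comparisons were chosen with earlier results of these data known. Fits were tested on simulated data. Alternatives covered the arrays fitted, variance model, array weights, probe set summary, a mean above 8, quantile normalization, median centring, and leaving out mice. Replicate numbers follow accession order. No genome was used, and promoter sequences came from RefSeq tables.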

Additional observations from a re-analysis of the deposited data

Results flagged for a closer look

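Among 282 groups of 96 h mice tested for an outlying value, 17 had 1 mouse apart from the rest of its group, 6 sensitized and 11 naive, where chance flags about 1 in 20 groups. Among sensitized mice these were Mmp12 at 11.84 in replicate 5 (others 12.58 to 13.21), Dcstamp at 8.64 in replicate 2 (others 6.87 to 7.70), Cd86 at 9.59 in replicate 2 (others 8.91 to 9.20) and Tnfrsf9 at 10.11 in replicate 2 (others 8.82 to 9.39). Further sensitized values were Reg3g at 8.98 in replicate 4 (others 12.71 to 13.69) and Per2 at 10.39 in replicate 5 (others 9.0 to 9.60). Among naive mice these were Scin at 6.48 in replicate 7 (others 5.61 to 5.92), Spdef at 7.81 in replicate 7 (others 7.09 to 7.36), Chia1 at 12.07 in replicate 2 (others 12.31 to 12.48) and Il5 at 5.35 in replicate 6 (others 5.49 to 5.57). Further naive values were Cxcl1 at 8.35 in replicate 6 (others 7.78 to 8.00), Trem2 at 7.69 in replicate 7 (others 7.87 to 7.98), Batf3 at 8.18 in replicate 6 (others 8.45 to 8.58) and Mcpt1 at 4.73 in replicate 4 (others 4.48 to 4.58). Further naive values were Canx at 13.03 in replicate 4 (others 13.13 to 13.18), Saa3 at 11.65 in replicate 2 (others 10.25 to 10.83) and Il10 at 5.18 in replicate 7 (others 4.70 to 4.88). Sensitized replicate 2 is the mouse apart for Dcstamp, Cd86 and Tnfrsf9. 

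The sensitized minus naive difference itself differed between times by a test of that difference. Against 72 h 1 gene passed, Nr1d1 (1.13). Against 168 h 892 genes passed, led by Cxcl3 (2.45), Fxyd4 (2.07), Muc5ac (1.95), Ccl8 (1.87), Ccl11 (1.80) and Capn9 (1.79) on the positive side. On the negative side were Fabp1 (-1.86), C1qtnf3 (-1.12), 9530026P05Rik (-1.09), Dach1 (-0.83), Edil3 (-0.82) and Ces2b (-0.81). Against 0 h 407 genes passed, with Eaf2 (2.18), a kappa variable segment (2.18), Derl3 (2.14), Mzb1 (1.92), Bcat1 (1.92) and Jchain (1.86) more positive at 96 h. Fabp1 (-1.72), Npy2r (-1.21), Zc3h6 (-1.09), Calcr (-0.97), Npas2 (-0.89) and Ooep (-0.88) were more negative.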

How the results depend on the processing

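No named gene changed direction while called in the alternatives run, whereas the split of higher and lower calls moved with rescaling. The count of genes called at 96 h, 5483, lay between 4808 and 5758 when single mice were left out. Array weights gave 376 genes for the difference from 72 h, 1573 for that from 168 h, 2122 for that from 0 h and 2653 for naive mice at 96 h against other naive groups. Quantile normalization gave 0 genes for the difference from 72 h. Leaving out the 96 h mice low in cardiac muscle genes, an alternative chosen after seeing the data, gave 103 genes against 168 h, 190 against 0 h and 187 for naive mice, with fewer mice fitted. Leaving out single mice gave 0 to 2 genes against 72 h, 442 to 1400 against 168 h, 230 to 616 against 0 h and 974 to 1607 for naive mice. The actin difference lay between -0.09 and -0.03 and its exact permutation p between 0.145 and 0.665. Of the named genes called at 96 h, 112 kept their call in every alternative run and 17 lost it in at least 1. Of 12 named against 168 h, 10 lost it in at least 1, of 12 against 0 h 6 did, and of 10 in naive mice 1 did. The cause of these changes was not tested. No paired analysis was possible because replicate numbers follow accession order and the mice are separate animals. With 8 and 7 mice, small differences of dim probe sets are the least certain.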
